A study of Mus musculus with 3 samples.

Results

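The B cell receptor is an antigen-binding immunoglobulin held in the membrane together with a heterodimer of the chains CD79A and CD79B. Levels of the genes for these chains and for 8 kinases, adaptors and enzymes that act next to the receptor were read in splenic lymphoma cells of the pBIC mouse. The 10 genes were chosen by name as Cd79a, Cd79b, Lyn, Blk, Fyn, Syk, Btk, Blnk, Plcg2 and Prkcb. Each matched 1 of the 37646 genes listed in the count files. All 10 passed the filter on low counts that left 11478 genes for testing.

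The material was 3 libraries, 1 from each of 3 tumours of C57BL/6 mice described as a model of the activated B cell (ABC) form of diffuse large B cell lymphoma. All mice carried p53F/F and Blimp1F/F, which are floxed alleles of the tumour suppressor p53 and the plasma cell factor BLIMP1. They also carried IKK2ca stop F/stop F, an activated IKK2 behind a floxed stop cassette, and Cg1Cre/+, a Cre recombinase at the C gamma 1 immunoglobulin locus, which limits recombination to B cells that use that locus. The sources used here do not state ages. Spleens came from moribund animals, and live B220+GFP+ cells were sorted. The libraries form 1 group, so the values describe levels within lymphoma cells and their spread between tumours. The sorted germinal centre B cells that the design text names as normal controls were not analysed here.

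Antigen binding brings SRC family kinases such as LYN to the receptor, where they phosphorylate paired tyrosines in the tails of CD79A and CD79B. SYK docks on these tyrosines through its SH2 domains and phosphorylates the adaptor BLNK. BLNK gathers BTK and the phospholipase PLCG2, whose products release calcium and activate protein kinase C beta, the product of Prkcb. That kinase connects the receptor to the IKK complex and NF-κB. Inhibitors of BTK are used in B cell malignancies, and mutations in CD79B are known from the human ABC lymphoma.

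The paired tyrosines lie in a motif called the immunoreceptor tyrosine-based activation motif, or ITAM. The coding stretches that hold it are shown because they are the docking platform of the receptor. They were found in the GENCODE release M21 transcripts (GRCm38) of both chains, and the capitals mark the tyrosine codons. The Cd79a stretch lies within chr7:24901296-24901469 on the forward strand. The Cd79b stretch lies within chr11:106311867-106312012 on the reverse strand. Each spans an intron.
Cd79a: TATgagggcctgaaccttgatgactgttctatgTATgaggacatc
Cd79b: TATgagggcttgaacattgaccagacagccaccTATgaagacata
Each stretch is 45 bases long, and 31 bases are the same at the same place. The longest run they share has 9 bases, far under the read length of 50 nt.

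The SRC family kinases switch on when a tyrosine in the activation loop is phosphorylated. The coding stretches of that loop are shown for the 3 family members of the set, because related kinases could exchange reads. Capitals mark the codon of the loop tyrosine. The stretches lie within chr4:3781015-3783007 for Lyn (forward strand), chr14:63374288-63375944 for Blk (reverse strand) and chr10:39533911-39551421 for Fyn (forward strand), and each spans an intron.
Lyn: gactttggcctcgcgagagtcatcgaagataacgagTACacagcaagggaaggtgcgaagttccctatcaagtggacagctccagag
Blk: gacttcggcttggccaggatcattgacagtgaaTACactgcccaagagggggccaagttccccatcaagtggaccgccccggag
Fyn: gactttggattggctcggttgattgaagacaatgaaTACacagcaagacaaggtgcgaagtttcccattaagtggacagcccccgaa
Lyn and Fyn had the same base at 67 of 87 places, and their longest shared run was 13 bases. The longest runs shared by Lyn with Blk and by Blk with Fyn were 11 and 9 bases. Over whole transcripts, none of the 10 genes had a 50-mer in common with another of them. A read of that length without errors thus fits no more than 1 of the 10.

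Some 50-mers were shared with genes outside the set. For Cd79a the share was 8.31%, all with the processed pseudogene Gm32220. For Lyn it was 18.3%, with the unprocessed pseudogene Gm11787 and with Gm26857, a long noncoding RNA gene on the opposite strand. Gm26857 overlaps 248 exon bases (6.09%) of Lyn. Gm32220 had 6, 7 and 6 counts in tumours 1, 2 and 3, and Gm11787 had none. Whether reads with several matches were kept, and whether strand was used, is not given in the sources used here, so the levels of Cd79a and Lyn carry that uncertainty. The share was 0.451% for Blnk, 0.13% for Prkcb and 0 for the other 6 genes.

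Total counts per library were 15141009, 15022902 and 15074513. Levels are given as CPM, the read count divided by the library total and multiplied by 1000000. The genes altered in the model had 24.4, 19.97 and 62.4 CPM (Trp53), 6.54, 19.2 and 9.49 CPM (Prdm1, which encodes BLIMP1) and 446, 271 and 398 CPM (Ikbkb, which encodes IKK2) in tumours 1, 2 and 3. Counts over whole genes do not separate recombined alleles, so neither recombination nor the transgene can be checked by them. The labels do not say outright that the tumours arose in unrelated animals. The same immunoglobulin genes led in all 3: Ighv8-11 and Ighj4 among heavy-chain V and J genes, and Igkv6-17 and Igkj1 among kappa V and J genes. If the tumours share a source, the SDs and p-values below describe spread between samples only. Raw counts differed between libraries by a chi-square per degree of freedom of 83.3 to 91.8 over the tested genes, far above the value near 1 that sampling noise gives.

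**Figure D1:**
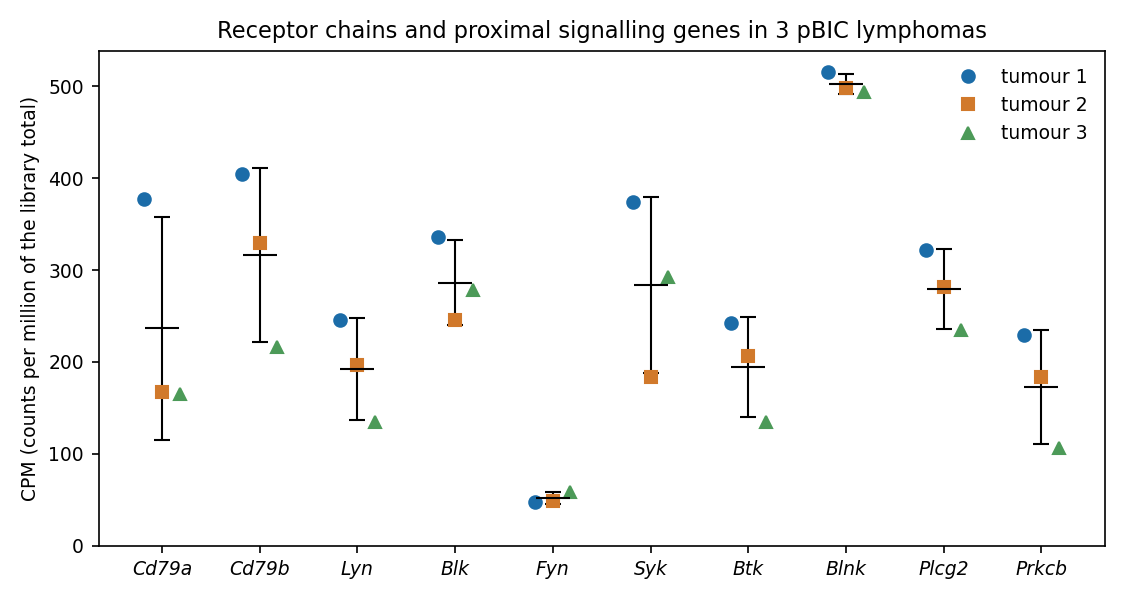
CPM (read count scaled to the library total) of the 10 genes in each of 3 pBIC lymphomas. Coloured symbols are single tumours, and black bars are the mean and SD (n = 3). Tumour 1 was highest for every gene other than Fyn, and Blnk had nearly the same level in all 3.

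Both receptor chain genes were abundant in every tumour and highest in tumour 1. Cd79a (ENSMUSG00000003379.7, chr7:24897381-24902197) had 377, 167 and 165 CPM in tumours 1, 2 and 3, a mean of 237 ± 122 CPM (SD, n = 3). Tumour 1 stood 2.28-fold above tumour 3, and tumours 2 and 3 lay within each other's 95% counting intervals (161 to 174 and 159 to 172 CPM, Clopper-Pearson). Intervals cover counting error only. The libraries carry no molecular identifiers, so amplified copies of a molecule cannot be told apart and the intervals may be too narrow. Cd79b (ENSMUSG00000040592.11, chr11:106311341-106314762) had 405, 330 and 216 CPM, a mean of 317 ± 94.8 CPM. Its counting intervals did not overlap between tumours, and the ratio of the highest to the lowest level was 1.87. In bulk RNA, fewer cells that express a gene and less RNA per cell cannot be told apart.

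The share of Cd79b in the counts on both chain genes was read in each tumour. Of the counts on both genes, Cd79b took 51.8% in tumour 1, with a 95% Clopper-Pearson interval of 50.9 to 52.7%. Its share was 66.3% in tumour 2, with an interval of 65.2 to 67.4%. Tumour 3 lay between them at 56.7%, with 55.4 to 57.98% as bounds. The mean was 58.3% ± 7.41 (SD, n = 3). The intervals cover counting error alone and did not overlap, but libraries at this depth differ by more than counting error over genes in general, so this is no test of a difference. The exon lengths of the genes, 1431 nt for Cd79b and 1457 nt for Cd79a, are close, and per length the shares were 52.2, 66.7 and 57.1%. The protein chains pair in equal numbers, but transcript shares do not measure the chains at the membrane.

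The immunoglobulin chains that the CD79 pair carries were also transcribed. Ighg3 led the heavy-chain constant genes with 85.7, 81.5 and 89.5% of their counts, and Igkc led the light-chain constant genes with 83.1, 86.2 and 82.7%. The pre-B cell receptor uses a surrogate light chain in immature cells. A list of genes of that stage was at the detection limit. It held the surrogate light chain genes Vpreb1 and Igll1 and the recombination genes Rag1, Rag2 and Dntt. All 5 had at most 3 counts in every library. A count of 0 allows up to 3 counts, which is 0.198, 0.2 and 0.199 CPM in tumours 1, 2 and 3.

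Of the 3 SRC family kinases, Blk was the most abundant and Fyn the least, in every tumour. Blk (ENSMUSG00000014453.4, chr14:63372836-63417037), a kinase largely restricted to the B lineage, had 336, 245 and 278 CPM, a mean of 286 ± 46.1 CPM. Lyn (ENSMUSG00000042228.14, chr4:3678115-3813122), which both starts receptor signalling and feeds inhibitory receptors, had 246, 196 and 135 CPM, a mean of 192 ± 55.6 CPM. The highest-to-lowest ratio was 1.37 for Blk and 1.82 for Lyn. Fyn (ENSMUSG00000019843.14, chr10:39368855-39565381), a kinase also prominent in T cells, had 47.0, 48.8 and 59.0 CPM, a mean of 51.6 ± 6.45 CPM. It was the only one of the 10 genes that was not highest in tumour 1 on the scale of library totals. The 13 T cell markers summed to 55.2, 56.1 and 110 CPM, also highest in tumour 3. Single markers differed in direction. Cd3g, Cd4, Cd8a, Cd8b1, Cd28, Trbc1 and Trbc2 were highest in tumour 3. Cd3d, Cd3e, Cd247, Lat and Trac were highest in tumour 2, and Cd5 was highest in tumour 1. None of these markers was at 0, with Cd8b1 highest at 25.2, 17.97 and 56.1 CPM and Cd247 lowest at 1.25, 1.26 and 0.531 CPM. Their part in the level of Fyn was not tested.

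SYK and BTK are the kinases that act after the SRC family. Syk (ENSMUSG00000021457.14, chr13:52583173-52648792) had 375, 184 and 293 CPM in tumours 1, 2 and 3, a mean of 284 ± 95.7 CPM. It was lowest in tumour 2, as was Blk. Btk (ENSMUSG00000031264.13, chrX:134542336-134583570) had 243, 207 and 135 CPM, a mean of 195 ± 54.6 CPM, and was lowest in tumour 3. Lyn, Syk, Btk and Plcg2 are also used by myeloid cells. The 10 macrophage and monocyte markers summed to 22.1, 84.5 and 13.4 CPM, led by Lyz2 and Vcam1, with Fcgr1 lowest at 0.528, 0.2 and 0.133 CPM. The 8 neutrophil markers summed to 59.6, 20.4 and 3.65 CPM, led by Ngp at 24.5, 5.66 and 0.995 CPM, with Elane lowest. No macrophage or neutrophil marker was at 0 in every tumour. The neutrophil sum was highest in tumour 1 and lowest in tumour 3, as were Lyn, Btk and Plcg2. Its part in their levels was not tested.

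The adaptor, the phospholipase and protein kinase C beta form the next step. Blnk (ENSMUSG00000061132.13, chr19:40928927-40994535) had 515, 498 and 494 CPM, a mean of 503 ± 11.2 CPM (SD, n = 3). It was the gene of the set with the most counts and the narrowest spread, with a ratio of 1.04. A ratio that narrow or narrower was found for 0.566% of tested genes. With TMM scaling the ratio was 1.07 (1.603% of tested genes), and with DESeq2 size factors it was 1.08 (1.79%). Plcg2 (ENSMUSG00000034330.10, chr8:117498291-117635142) had 322, 281 and 235 CPM, a mean of 279.5 ± 43.7 CPM. Prkcb (ENSMUSG00000052889.11, chr7:122288751-122634402) had 229, 183 and 106 CPM, a mean of 173 ± 62.2 CPM. Its ratio of 2.16 was second to that of Cd79a.

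The spread between tumours was read against all genes. An edgeR quasi-likelihood model with an intercept alone compared the variance of each gene over the tumours with the trend of variance on abundance. None of the 10 genes passed at a Benjamini-Hochberg adjusted p of 0.05 over all genes tested, and 16 of 11478 genes (0.139%) did. At an unadjusted p under 0.05 it was 1 of the 10 genes, against 6.27% of tested genes. That gene was Cd79a, with an edgeR adjusted p of 0.789 over all genes. Adjusted values for the other 9 genes ran from 0.956 for Prkcb to 0.9999 for Blnk. A p that misses the threshold does not show equal levels, since 3 tumours leave 2 residual degrees of freedom.

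By size alone, 3 of the 10 genes (Cd79a, Prkcb and Syk) had a highest-to-lowest CPM ratio of at least 2, as did 29.2% of tested genes. At a limit of 1.5 it was 6 of the 10, against 61% of tested genes. Both shares are close to those of all genes. The median ratio was 1.81 over the 10 genes and 1.63 over all tested genes. Syk lay just past the limit at 2.04, and at 1.91 when libraries were scaled by TMM, edgeR's trimmed mean of M-values. Without tumour 1, none of the 10 reached a ratio of 2. Leaving out a tumour can only keep or lower the ratio of any gene, and the matching share of all genes was not computed.

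**Figure D2:**
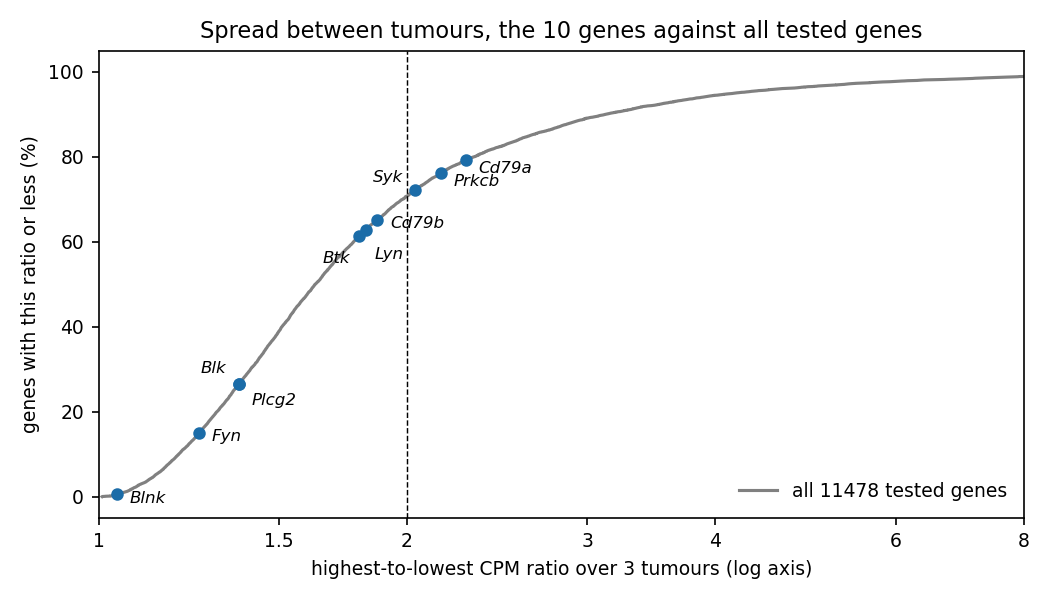
The grey line gives, for all 11478 tested genes, the percent with a highest-to-lowest CPM ratio over 3 tumours (log axis) at or below each value. Points are the 10 genes, from Blnk at 1.04 to Cd79a at 2.28, and the dashed line marks a ratio of 2.

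The direction of the spread was shared. Tumour 1 was the highest of the 3 for 9 of the 10 genes, against 35.4% of tested genes, and 7 of the 10 were highest in tumour 1 and lowest in tumour 3, against 16.1%. Fyn was highest in tumour 3, as were 34.5% of tested genes, and none of the 10 was highest in tumour 2, as 30.2% were. The lowest level was in tumour 3 for 7 genes (30.9% of tested genes), in tumour 2 for Blk and Syk (39.4%) and in tumour 1 for Fyn (29.6%). The 7 genes highest in tumour 1 and lowest in tumour 3 were Cd79a, Cd79b, Lyn, Btk, Blnk, Plcg2 and Prkcb. With TMM scaling, Blnk was highest in tumour 2 (504, 519 and 486 CPM in tumours 1, 2 and 3), and the counts became 8 and 6 genes. With DESeq2 size factors they were also 8 and 6. The genes were read in the same 3 libraries, so the counts are no measure of chance. The 9 pan-B markers, genes outside the set, summed to 4749, 2741 and 2802 CPM, highest in tumour 1 and lowest in tumour 2. They include Ptprc, which is not confined to B cells. Cd22 was highest in tumour 3 (659, 307 and 671 CPM) and Fcer2a in tumour 2 (1.12, 1.13 and 0.464 CPM). The other markers of the list were highest in tumour 1. The part of the pan-B markers in the direction was not tested.

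Some profiles nearly coincided. Likeness was measured as the distance between log2 CPM values over the 3 tumours after the mean of each gene was subtracted, where 0 is an identical profile. The distance was 0.0464 between Cd79b and Lyn, 0.0511 between Cd79b and Btk, 0.0691 between Lyn and Btk, and 0.159 between Cd79b and Prkcb. Of the 11478 tested genes, 17 lay nearer to Cd79b than Lyn did, and 68 lay within a distance of 0.1. Whether such likeness over 3 points means more than coincidence was not tested. The 3 nearest to Cd79b were Sorcs2, Taz and Cd86, the last with 110, 89.3 and 59.8 CPM. Cd79a had its own profile, with Lyn as the nearest of the set at 0.605, and 1417 tested genes lay nearer than that. The 3 genes nearest to it were 4930451G09Rik, Etv5 and Akap9.

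Levels of different genes were compared per length, as TPM from the union of annotated exons. Cd79b led in each tumour with 904, 658 and 449 TPM, a mean of 671 ± 228 TPM (SD, n = 3). Cd79a followed at 498 ± 286 TPM, then Blk at 322 ± 70.8, Blnk at 253 ± 19.9, Plcg2 at 197 ± 39.5, Btk at 187 ± 59.4 and Lyn at 143 ± 47.6 TPM. Syk at 92.4 ± 36.0, Prkcb at 68.6 ± 27.3 and Fyn at 35.5 ± 4.23 TPM closed the order. The first 4 ranks were the same in all tumours, as were the places of Lyn and Fyn. Among tested genes, the TPM of the 10 lay between percentile 60.02 (Fyn in tumour 1) and 99.1 (Cd79b in tumour 1).

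Neighbours in this order were compared within tumours as differences in log2(TPM + 1), with an exact two-sided sign-flip test. With 3 tumours its smallest p is 0.25, so no difference could pass a threshold of 0.05. Of 9 neighbouring pairs 7 kept 1 direction in 3 of 3 tumours (exact p = 0.25, 0.321 adjusted over the 9). Plcg2 minus Btk was 0.10 ± 0.21 and Syk minus Prkcb was 0.43 ± 0.72, each within its spread. The order depended on the length used. With coding length in place of exon length, Blnk was second and Plcg2 ninth. The exon length of Blnk, 5991 nt, includes long noncoding parts and its coding length is 1374 nt. For Plcg2 most of the exon length is coding, 3798 of 4298 nt. Fyn stayed last. The first 3 means were then nearly equal, at 402 TPM for Cd79b, 399.4 TPM for Blnk and 398 TPM for Cd79a.

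**Figure D3:**
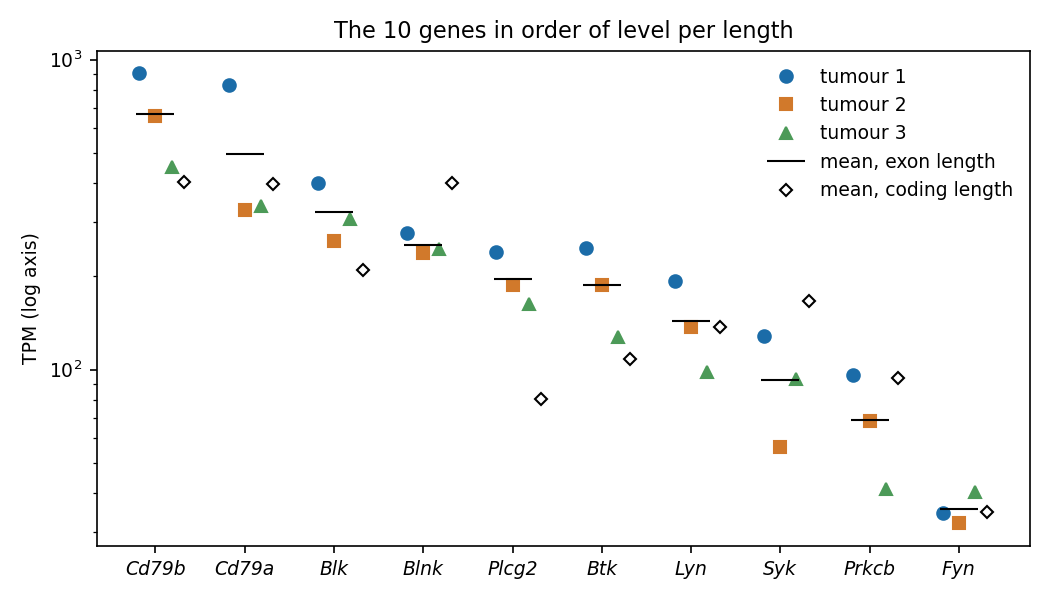
TPM (log axis) of the 10 genes in each tumour (coloured symbols), ordered by the mean over 3 tumours with exon length (bars). Diamonds give the mean with coding length, which puts Plcg2 at rank 9, leaves Fyn last and brings Cd79b, Blnk and Cd79a to nearly equal means of 402, 399.4 and 398 TPM.

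Several of the genes have a close relative that serves the T cell receptor, and in each pair described here the B cell form was higher in 3 of 3 tumours. Syk exceeded Zap70, the T cell kinase of the same family, by 4.76 ± 0.60 in log2(TPM + 1) (SD, n = 3), 27.2-fold. Zap70 had 1.98, 2.26 and 2.52 CPM. Prkcb exceeded Prkcq by 5.78 ± 0.51, 55.0-fold. Prkcq averaged 0.464 CPM, so the pseudocount holds this fold down. Blnk exceeded Lcp2, which encodes the adaptor SLP-76, by 4.38 ± 0.81, 20.9-fold. Lyn exceeded Lck by 3.06 ± 0.56, 8.34-fold. The smallest Lyn minus Lck difference, 2.44, was in tumour 1, where Lck had 31.8 CPM, against 11.3 and 9.55 CPM in tumours 2 and 3. Plcg2 exceeded Plcg1 by 3.73 ± 0.83, 13.3-fold, and Plcg1, with 39.7, 19.9 and 56.9 CPM, had the highest mean CPM of these relatives, and by mean TPM Lck was higher (18.5 TPM, against 14.98 TPM for Plcg1). The sizes depended on the length used. Syk minus Zap70 was 6.09 with coding length and 6.39 with no length. Blnk minus Lcp2 was 5.03 with coding length. Plcg2 minus Plcg1 was 2.87 with coding length and 2.92 with no length. Prkcb minus Prkcq was 6.83 with no length and 7.80 with a pseudocount of 0.1.

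Differences within families of genes that B cells themselves use ran up to 3.13. Btk exceeded Tec, which encodes a related kinase of B cells, by 2.87 ± 0.31, 7.33-fold. Blk exceeded Fyn by 3.13 ± 0.32 and Lyn exceeded Fyn by 1.93 ± 0.60. Lyn lay below Blk, with Lyn minus Blk at -1.19 ± 0.38, and Cd79b exceeded Cd79a by 0.51 ± 0.45. The 10 differences described kept 1 direction in 3 of 3 tumours, and the exact two-sided sign-flip test gave p = 0.25 for each (0.25 when adjusted over 11 pairs). With coding length, with no division by length and with a pseudocount of 0.1, the mean kept its sign for each of the 10. Cd79b minus Cd79a fell to 0.10 ± 0.45 with coding length and did not have 1 sign in all tumours (exact two-sided sign-flip p = 0.75). Blk minus Fyn was 2.54 with coding length and 2.45 with no length, and Lyn minus Blk was -0.64 and -0.60.

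**Figure D4:**
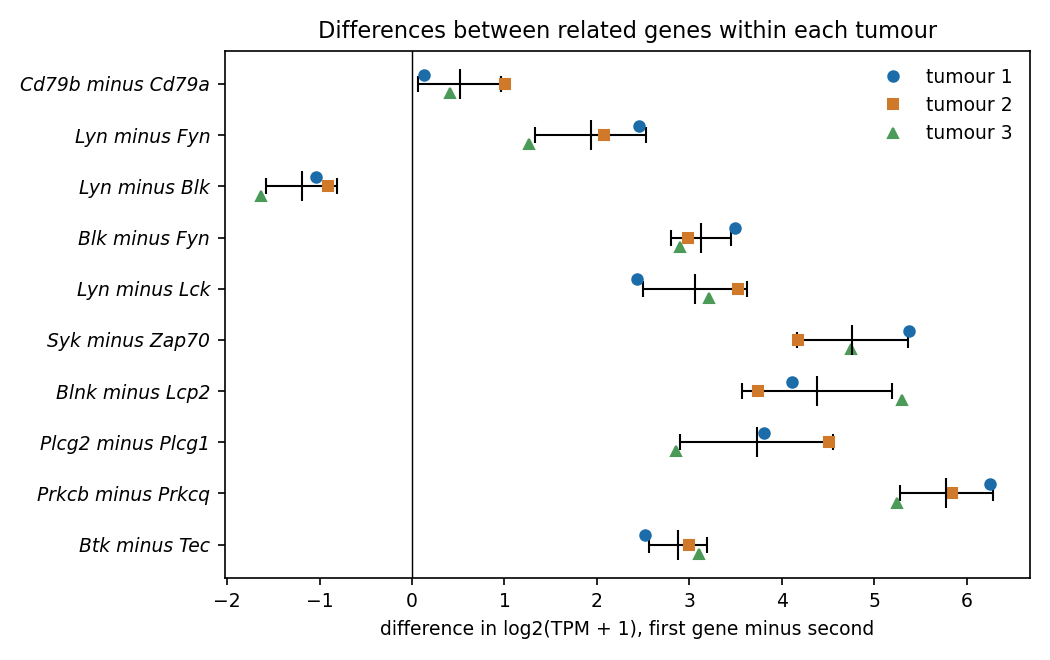
Differences in log2(TPM + 1) between related genes, first gene minus second, in each tumour (coloured symbols) with mean and SD (black, n = 3). All values other than Lyn minus Blk lie to the right of 0, and Prkcb minus Prkcq is farthest at 5.78.

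The wider families were represented unevenly. Of 20 further relatives of the 10 genes, 13 reached 1 CPM in every tumour. By edgeR 0 of the 15 tested were called, and 2 had an unadjusted p under 0.05, against 6.27% of all tested genes. A ratio of at least 2 was found for 10 of the 15, against 29.2% of all tested genes. The median of the mean levels of the 20 relatives was 5.30 CPM, against 258 CPM for the 10 genes. The exception was Prkcd, which encodes protein kinase C delta, a kinase linked to B cell tolerance. Its level was 399.7, 369.5 and 529 CPM in tumours 1, 2 and 3. Its mean of 235 ± 46.7 TPM stood above the 68.6 ± 27.3 TPM of Prkcb. Plcg1 was the next by mean CPM, and Clnk, a relative of Blnk, had no count.

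Genes around the core pathway were mostly well represented. Of 10 coreceptors and inhibitory receptors 9 reached 1 CPM in every tumour. The inhibitory receptor Cd22 had 659, 307 and 671 CPM. The complement receptor gene Cr2 was near absent, with 2.51, 0 and 0.0663 CPM. All 11 regulators of SRC kinases and phosphatases reached 1 CPM, led by Ptprc, which encodes the activating phosphatase CD45 (718, 310 and 427 CPM), and by Csk, the kinase that restrains the SRC family (446, 442 and 425 CPM). The ratio of Csk was 1.05, near the 1.04 of Blnk. The lowest of these 11 was Sla2 at 2.05, 1.13 and 5.64 CPM.

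Of 14 adaptors and exchange factors 13 reached 1 CPM. Pik3ap1, which links the receptor to PI3 kinase, had 420, 377 and 473 CPM, and Grb2 had 323, 366 and 416 CPM. Vav3 was lowest at 2.38, 0.666 and 0.265 CPM. All 14 genes of signalling after PLCG2 reached 10 CPM. Nfatc1 had 568, 302 and 264 CPM and Nfatc3 had 322, 190 and 407 CPM, both encoding factors that calcium signalling activates, and the calcium channel gene Orai1 was lowest with 17.6, 21.4 and 18.4 CPM. In these 4 lists edgeR called 0 genes, and 0, 3, 1 and 1 genes had an unadjusted p under 0.05 among 9, 11, 13 and 14 tested. Over all tested genes that share was 6.27%. Ratios of at least 2 were found for 4, 7, 5 and 5 of them, against 29.2% of all tested genes.

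Promoter sequences from RefSeq (GRCm38.p6), 250 bases before to 50 after the start, were matched by symbol for 7 of the 10 genes, with 2 starts for Syk. Cd79b, Lyn and Blk had no window and were not searched. They are shown for Cd79a, with the widest ratio between tumours, for Prkcb, with the next widest, and for Blnk, with the narrowest. Capitals mark matches, on either strand, to the octamer ATGCAAAT, bound by the B cell factors OCT2 and OCA-B, and to AGGAAGTG, a core bound by ETS factors. The windows are chr7:24897247-24897546 (forward strand) for Cd79a, chr7:122288875-122289174 (forward strand) for Prkcb and chr19:40994172-40994471 (reverse strand) for Blnk.
Cd79a: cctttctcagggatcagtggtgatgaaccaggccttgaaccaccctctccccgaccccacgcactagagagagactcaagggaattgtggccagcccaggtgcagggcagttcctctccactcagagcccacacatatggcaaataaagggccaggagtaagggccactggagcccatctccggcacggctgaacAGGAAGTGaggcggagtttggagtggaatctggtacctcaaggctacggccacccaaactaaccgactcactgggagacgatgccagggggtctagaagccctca
Prkcb: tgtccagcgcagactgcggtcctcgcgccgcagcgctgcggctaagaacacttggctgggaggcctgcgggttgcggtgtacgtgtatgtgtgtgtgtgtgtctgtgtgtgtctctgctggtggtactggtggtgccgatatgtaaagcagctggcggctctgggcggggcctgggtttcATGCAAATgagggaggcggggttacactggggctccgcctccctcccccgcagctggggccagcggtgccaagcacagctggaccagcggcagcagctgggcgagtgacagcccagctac
Blnk: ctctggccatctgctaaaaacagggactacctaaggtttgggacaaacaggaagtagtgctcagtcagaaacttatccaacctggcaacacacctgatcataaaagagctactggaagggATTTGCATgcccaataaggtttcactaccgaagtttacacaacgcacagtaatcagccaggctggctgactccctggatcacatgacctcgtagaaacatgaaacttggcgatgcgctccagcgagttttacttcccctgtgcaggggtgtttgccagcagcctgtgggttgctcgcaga
The octamer was found in Prkcb, from base -70, and in Blnk, from base -130, and in 1.74% of all 32851 promoter windows. Among the windows of the 7 matched genes, the ETS letters were found in Cd79a alone, from base -55, and in 4.07% of all windows. An EBF consensus (in 0.904% of all windows) and an NF-κB consensus (4.51%) were in none of the 8 windows. Each consensus was searched as a fixed pattern, so a site that departs from it would be missed. The lack of a match is thus no evidence that a site is absent, for Cd79a or any other gene. The E-box CAGCTG was in Prkcb, with 4 matches, and in 1 Syk window, and in 16.3% of all windows. Prkcb, with the next widest ratio, and Blnk, with the narrowest, both held the octamer. A match is a description of the letters and no evidence of binding.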

How the data were processed

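The authors deposited raw read counts, not normalized, with 1 library per file. The submitters' processing notes name FastQC, STAR 2.5.2b, featureCounts 1.6.0 and the mm10 build. Settings, strand use and annotation release: not given in the sources used here. Per the labels' protocols, polyadenylated RNA was read as single reads of 50 nt. CPM is the count divided by the library total of 15022902 to 15141009. TPM used union exon lengths of GENCODE release M21 (GRCm38), which held 37536 of 37646 gene identifiers, 36825 with the same version. Coordinates are 1-based.

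The variability test used R 4.3.3 and edgeR 4.0.16 with filterByExpr and TMM factors of 1.023, 0.9601 and 1.018. The residual deviance of an intercept-only fit was divided by the robust trended prior variance and compared with the upper tail of F on 2 and 15.8 degrees of freedom. It was tested on simulated data. Sign-flip tests were exact and two-sided. Alternatives were other scalings (DESeq2 1.42.0 size factors among them), filters, lengths, pseudocounts and the omission of each tumour.

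Tumour numbers follow accession order and are names only. The 10 genes and the gene lists were chosen with earlier results of these data known. Named genes were the 10, their paired relatives, the 2 highest and the lowest of each list by mean CPM, genes of the lists called by the test, leading immunoglobulin genes, and the 3 nearest to Cd79a and to Cd79b. Vpreb2 was not listed in the files. Protein sequences were not used here. Results for 1 of the 11 pairs and for 1 gene the naming rule picked are not reported here.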

Additional observations from a re-analysis of the deposited data

How the results depend on the processing

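No paired analysis was possible because all libraries belong to 1 group and no 2 groups share numbers; differences between genes were taken within each tumour. Of 213 alternative values, 191 kept their direction and side of the threshold (levels moved by under 1 SD, counts by under 1.5 times), 14 moved and 8 reversed. Part of the 191 was fixed in advance. With 3 tumours, leaving out 1 cannot move a mean by 1 SD. No sign-flip p could go under 0.05, so differences between genes could change direction but not side of the threshold. Size could still change among the 191, as for Blnk minus Plcg2, which went to 2.31 with coding length, against 0.38 with exon length. None of the 10 genes was called in any of the 9 edgeR fits, and 0 to 2 of them had an unadjusted p under 0.05. The 2 came without tumour 2, where 606 of 11941 tested genes had such a p. In the main fit it was 1 of the 10, against 720 of 11478 tested genes. With no filter it was 1 of the 10, against 1334 of 25500. Over all genes the calls depended on the setting. The 16 calls became 0 with library totals alone, 0 with a mean count of at least 10, 164 with no filter and 0 to 11 when 1 tumour was left out (0 without tumour 1 or tumour 2). The cause was not tested. The count of the 10 genes with a ratio of at least 2 was 3, and 6 at a limit of 1.5, and 0 to 2 with 1 tumour left out (0 without tumour 1). The share of all genes with 1 tumour left out was not computed. The mean of Blnk was 538 CPM on totals without immunoglobulin and mitochondrial genes, a scaling that raises the median of all genes by 0.10 on the log2 scale. With 10 CPM in place of 1, lists kept 4 relatives, 1 T cell, 0 macrophage, 0 natural killer, 1 dendritic and 0 platelet and erythroid genes.

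In the order by level, coding length turned Blk minus Blnk to -0.95, Plcg2 minus Btk to -0.38, Btk minus Lyn to -0.34 and Lyn minus Syk to -0.25. Without division by length, Cd79a minus Blk was -0.38, Blk minus Blnk -0.82 and Lyn minus Syk -0.54. Plcg2 minus Btk ran from -0.021 (without tumour 3) to 0.17 with 1 tumour left out. The lengths themselves make the first 7 of these changes, and for the omission of tumour 3 the cause was not tested. The 10 genes had at least 712 counts in every library, so depth did not limit their levels as the number of tumours did.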

Other observations

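The factor gene Pax5 had 641, 250 and 340 CPM in tumours 1, 2 and 3, and Pou2af1, which encodes the octamer coactivator OCA-B, had 422, 385 and 371 CPM. Ebf1, which encodes a B lineage factor, had 14.2, 4.66 and 2.32 CPM. None of them was called by edgeR, with adjusted p of 0.746 for Ebf1, 0.791 for Pax5 and 0.999 for Pou2af1. Fcer2a, which encodes the follicular B cell marker CD23, had 1.12, 1.13 and 0.464 CPM. Ebf1, Pax5 and Pou2af1 were picked here after their values were seen.

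Bank1, an adaptor gene of B cells that links the receptor to calcium release, had the smallest p of the adaptor list. It had 162, 35.7 and 29.98 CPM, a 5.41-fold range, with an edgeR adjusted p of 0.0907. The B cell surface gene Ms4a1, which encodes CD20, had 940, 545 and 260 CPM and an edgeR adjusted p of 0.468. Neither passed the threshold, and Bank1 was picked here after its values were seen. Among marker lists edgeR called 3 genes. Lyz2 had 7.73, 53.8 and 4.11 CPM (adjusted p = 0.0372), Hbb-bs had 2.64, 8.32 and 62.6 CPM (adjusted p = 0.0234) and Jchain had 36.3, 396 and 237 CPM (adjusted p = 0.0363). With library totals in place of TMM, edgeR called no gene.

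Natural killer markers summed to 23.7, 36.3 and 8.36 CPM in tumours 1, 2 and 3, led by Gzmb and Prf1, with Ncr1 at or near 0. Dendritic cell markers summed to 58.9, 86.7 and 59.6 CPM, led by Bst2 and Flt3, with Clec9a at or near 0. Platelet and erythroid markers summed to 6.87, 21.1 and 124 CPM, led by Hbb-bs and Hba-a1, with Gp9 at or near 0. Plasma cell markers summed to 422, 669 and 502 CPM, led by Jchain and Irf4, with Tnfrsf17 lowest. The sort kept live B220+GFP+ cells, and how many other cells remained was not measured.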
